A study of Mus musculus with 12 samples.

Results

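The genes for cytoplasmic ribosomal proteins were examined for the histone mark H3K27me3 (histone H3 trimethylated at lysine 27) in iMEF cells, an immortalized line of mouse embryo fibroblasts. The members were the autosomal protein-coding genes whose symbol is Rpl or Rps followed by a number and at most 1 letter. This rule found 72 genes among 20807 autosomal protein-coding genes, of which 43 encode proteins of the large and 29 of the small ribosomal subunit. They lie on 18 chromosomes, with 13 of them on chromosome 7 and 0 on chromosome 19. The rule used gene symbols and no measured value.

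In all groups the endogenous Ash2l gene had lost exon 4 through a floxed allele and Cre-ER, and the cells lived on a lentiviral human ASH2L fused to an FKBP domain and an HA tag. ASH2L is a subunit of the COMPASS/KMT2 complexes, which methylate lysine 4 of histone H3, and the compound dTAG-13 directs the fusion protein to degradation. The study used 1 clone (NG3) for its ChIP-seq experiments, so that other clones are not represented. H3K27me3 was measured by chromatin immunoprecipitation and sequencing in 8 libraries. Untreated cells and cells given dTAG over 16 h, 24 h or 48 h had 2 libraries apiece, and input chromatin was sequenced from untreated (2) and 48 h cells (2). The values available were the positions of 101389 sites that the authors identified over all samples together. In this list a site carries no read count and no link to a library, so the effect of dTAG on ribosomal protein genes could not be examined from it. A separate list of the study, of sites changed at each time, was not used here. The pooled list gives no replicate error for any value, and the depth obtained is unknown, since the study gives only a planned minimum of reads per sample.

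Ribosomal proteins assemble with ribosomal RNA into the large and small subunits that translate mRNA, and growing cells transcribe their genes at high rates. Their promoters lie mostly in CpG islands (CGIs), stretches rich in unmethylated CpG. H3K27me3 is placed by Polycomb repressive complex PRC2 and is known from the CGI promoters of silent developmental regulators. Ribosomal protein genes and Polycomb targets thus share a promoter type, while their usual activity differs. Most proteins are encoded by 1 functional gene, but the genome also holds many processed pseudogenes of them.

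Of the 72 genes, 70 had a CGI within 1 kb of a transcription start site (TSS), which is 97.2% against 60.5% of all autosomal protein-coding genes. The exceptions were Rpl3l and Rpl4. Within 1 kb on both sides of the TSSs, the ratio of observed to expected CpG had a median of 0.680 for ribosomal protein genes and 0.489 for all genes. It was 0.635 for all genes with a CGI and 0.612 for 85 genes of Polycomb target families.

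Promoter sequences show this difference directly. The RefSeq promoter table of GRCm38.p6 had an entry for 53 of the 72 genes (73.6%), and with fewer than 80% matched the medians over them describe these 53 genes and not the family. Stretches are printed for 1 gene with its TSSs inside H3K27me3 sites (Rpl3l) and for those with a site just upstream (Rpl26 and Rpl38). Those of the genes farthest from any site (Rpl10a, Rps12 and Rps27l) are printed too. Each stretch holds 100 bases before the RefSeq start and 20 bases from it on, 5′ to 3′, with each CpG in capitals.
Rpl3l (chr17:24727726-24727845, + strand): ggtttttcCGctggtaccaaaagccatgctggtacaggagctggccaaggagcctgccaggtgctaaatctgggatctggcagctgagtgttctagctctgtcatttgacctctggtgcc
Rpl26 (chr11:68901466-68901585, + strand): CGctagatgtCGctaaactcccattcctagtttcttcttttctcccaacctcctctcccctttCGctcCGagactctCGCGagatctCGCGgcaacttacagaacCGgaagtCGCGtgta
Rpl38 (chr11:114668480-114668599, + strand): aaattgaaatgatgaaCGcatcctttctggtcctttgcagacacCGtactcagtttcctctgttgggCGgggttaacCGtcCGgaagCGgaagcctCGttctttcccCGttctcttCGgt
Rpl10a (chr17:28328371-28328490, + strand): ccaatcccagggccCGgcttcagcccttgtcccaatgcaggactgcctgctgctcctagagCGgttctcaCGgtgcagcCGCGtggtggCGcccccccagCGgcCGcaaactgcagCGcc
Rps12 (chr10:23787190-23787309, - strand): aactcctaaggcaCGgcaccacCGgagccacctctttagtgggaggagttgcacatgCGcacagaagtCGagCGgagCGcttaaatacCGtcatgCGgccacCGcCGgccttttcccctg
Rps27l (chr9:66945986-66946105, + strand): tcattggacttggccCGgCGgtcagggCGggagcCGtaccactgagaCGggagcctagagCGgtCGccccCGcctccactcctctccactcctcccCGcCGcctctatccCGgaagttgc

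The stretch of Rpl3l held 1 CpG, and those of Rpl26, Rpl38, Rpl10a, Rps12 and Rps27l held 11, 9, 9, 10 and 11. Thus the CpG-rich stretches belonged both to genes with a site close by and to genes without one in more than 100 kb. Over the whole 300-base promoters, the median number of CpGs was 21 for the 53 genes and 7 for all 31396 autosomal entries. The letters CCGGAAG, the core of an ETS factor motif, occurred on either strand in 39.6% of the ribosomal protein promoters and 9.0% of all promoters. A run of at least 8 pyrimidines within 10 bases on either side of the start was present in 45.3% against 14.1%. A C at the first base was found in 32.1% against 16.4%. TOP mRNAs, whose translation follows growth signals, open with a C and a pyrimidine run. The run counted here could also lie before the start, so these are not shares of TOP mRNAs. TATAAA was found in 3.77% against 13.6%. A match is a description of these letters and does not show that a factor binds.

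Ribosomal protein genes seldom had an H3K27me3 site at the TSS. A site lay within 1 kb of any annotated TSS at 5 of 72 genes, which is 6.94% (95% Wilson interval 3.0% to 15.2%, which treats genes as independent and covers counting error only). The same share was 26.9% over all autosomal protein-coding genes and 26.5% over those with a CGI. Among the ribosomal protein genes with a CGI, 4 of 70 (5.71%) had a site. The 5 genes were Rpl17, Rpl3l, Rpl3, Rpl26 and Rpl38, all of the large subunit (5 of 43, 11.6%), whereas 0 of 29 genes of the small subunit had one. The 95% Wilson intervals of these shares overlap, with 5.07% to 24.5% and 0% to 11.7%, and the difference was not tested. Ribosomal protein genes have more annotated TSSs, with a median of 6 against 3 for all genes and 5 for genes with a CGI. They thus have more places at which a site can be counted. With 1 TSS a gene, that of the basic protein-coding transcript with the longest coding sequence, 3 of 72 genes remained (4.17%), against 23.8% of all genes and 23.7% of genes with a CGI.

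**Figure D1:**
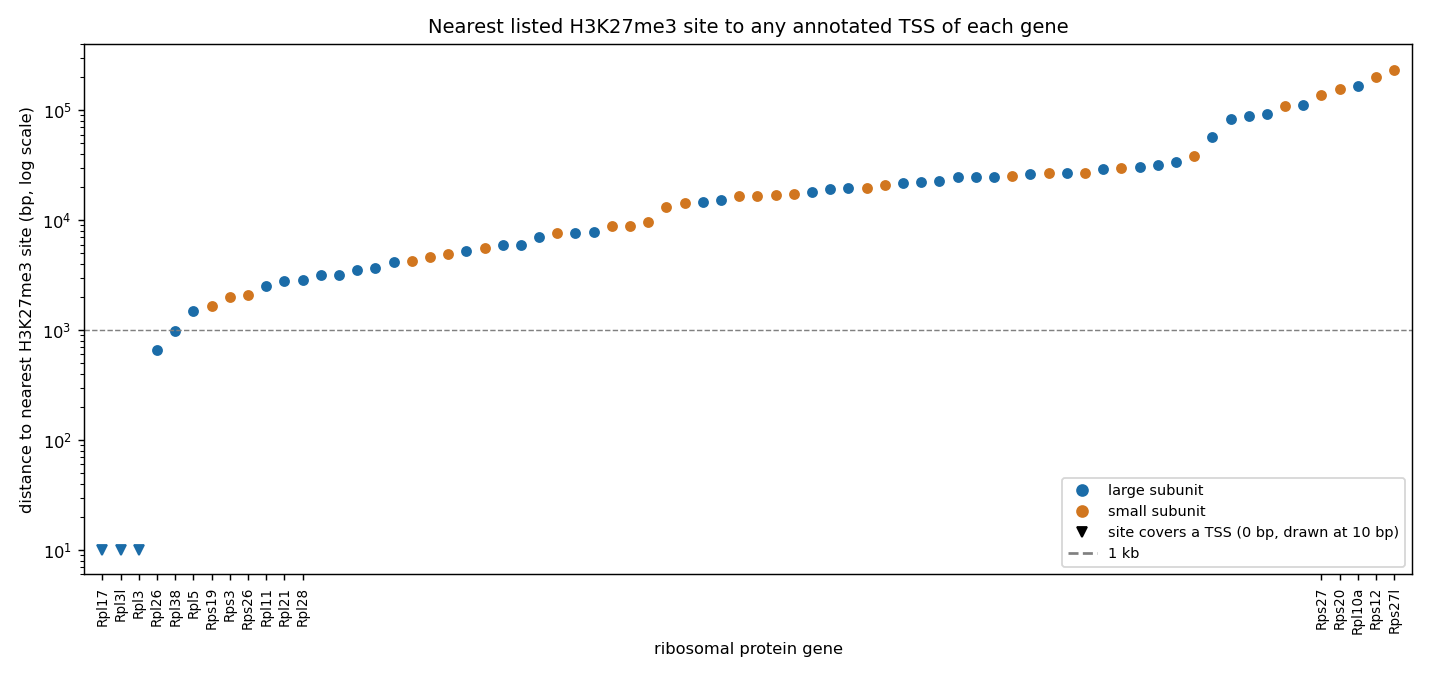
Distance in bp (log scale) from the nearest annotated TSS of each of the 72 ribosomal protein genes to the nearest listed H3K27me3 site, in order of distance, with names at the 12 nearest and 5 farthest genes. Blue marks large and orange small subunit genes, triangles mark genes with a TSS inside a site, and the dashed line marks 1 kb, below or on which 5 genes lie.

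Each of the 5 genes met the site in its own way, and the positions below are those of mm10. Rpl3l, which encodes a paralog of RPL3 known from heart and skeletal muscle, lies at chr17:24727820-24736143 on the plus strand. Its site, chr17:24726393-24729277 (2885 bp), began upstream and ran into the gene, and 3 sites together covered 52.5% of the gene and all 3 of its TSSs. Within 1 kb of its TSSs, 81.5% of the bases were covered. The next highest share in the family was that of Rpl3, with 25.5%. Among these nearest sites of the 5 genes, only that of Rpl3 touched a CGI.

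Rpl3, the ubiquitous counterpart, lies at chr15:80077791-80091868 on the minus strand. The site at chr15:80088999-80092606 (3608 bp) covered only the TSS of a transcript outside the basic set, at 80091868. The same site touched a CGI and covered a TSS of Syngr1 (synaptogyrin 1, a synaptic vesicle protein), which is transcribed the other way from chr15:80091334-80119501. Relative to the TSS chosen for Rpl3, at 80083406, this site spanned positions -9200 to -5593 bp. A second site of 252 bp inside the gene was the nearest to the chosen TSS, at 3088 bp, and both together covered 22.2% of the gene. With the basic set of transcripts, Rpl3 therefore had no site within 1 kb.

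Rpl17 (chr18:74998558-75003381, plus strand) had a site of 403 bp at chr18:74998234-74998636, which reached 79 bp into an untranslated exon. It covered 1 of 2 annotated TSSs, and the other lay 1841 bp from it. Within 1 kb of the Rpl17 TSSs the ratio of observed to expected CpG was 0.214, the lowest of the family. At Rpl26 (chr11:68901583-68906989, plus strand) the site chr11:68898592-68900919 (2328 bp) ended 664 bp upstream of the first TSS and overlapped no gene. At Rpl38 (chr11:114668524-114672331, plus strand) the site chr11:114662156-114667534 (5379 bp) ended 990 bp upstream and covered the processed pseudogene Gm11689. Thus neither the Rpl26 nor the Rpl38 site reached into its gene. RPL26 is a regulator of p53 translation, and RPL38 is known for its part in translating Hox mRNAs.

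The limit of 1 kb separated neighbouring values narrowly. Rpl38, at 990 bp, was the last gene inside it and Rpl5, at 1507 bp, the first outside. The next were Rps19 at 1643 bp, Rps3 at 1999 bp, Rps26 at 2086 bp and Rpl11 at 2518 bp. All of these sites were upstream of the TSS. That of Rps19 was the widest among the nearest sites of the family (11540 bp) and lay over part of Dmrtc2. Rps19 also had the largest covered share within 10 kb of its TSSs, 34.3%, followed by Rps3 with 29.7% and Rpl17 with 28.7%.

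**Figure D2:**
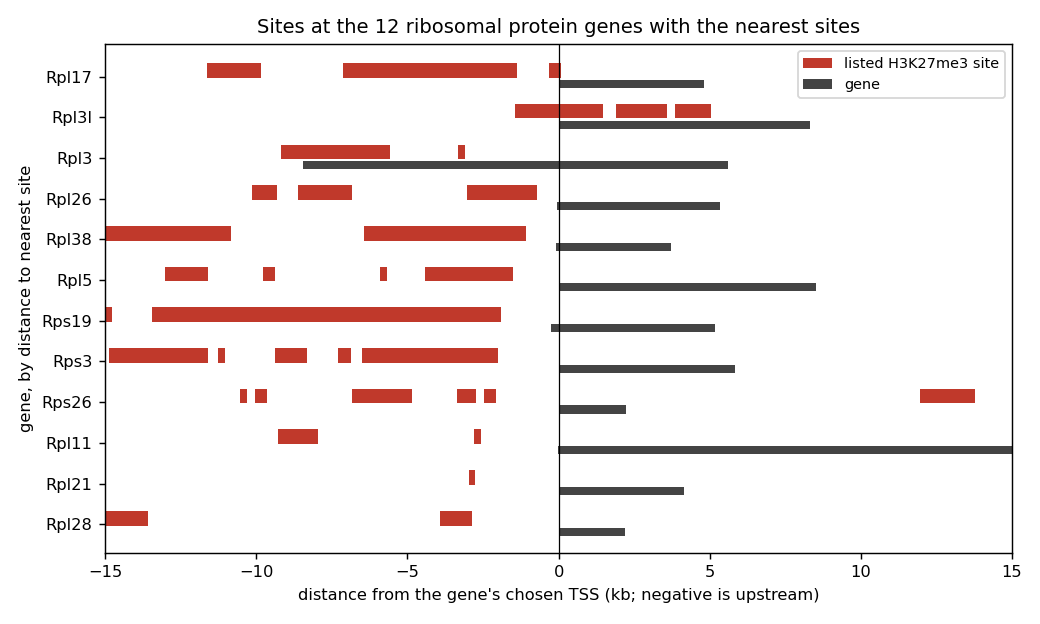
Listed H3K27me3 sites (red) and gene bodies (dark bars) around the chosen TSS of the 12 ribosomal protein genes with the nearest sites, drawn in the direction of transcription and cut off at 15 kb on either side. Nearly all sites shown are upstream of the chosen TSSs. Sites lie inside the genes Rpl3l and Rpl3 and overlap the start of Rpl17, and Rpl3 extends upstream of its chosen TSS because another annotated transcript starts there.

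At the other end were 7 genes with no site within 100 kb. The 5 farthest were Rps27l at 230265 bp, Rps12 at 201227 bp, Rpl10a at 166045 bp, Rps20 at 156415 bp and Rps27 at 138762 bp. Over the 72 genes the distance ranged from 0 to 230265 bp, with quartiles of 4500 and 26804.5 bp. The median was 16618.5 bp (95% interval 7843 to 21578 bp) against 13039 bp for all genes and 11114 bp for genes with a CGI. Both of these medians lie inside the interval.

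The gap to other genes was seen close to the TSS and was smaller at longer range, where the share of genes with a site was as high or higher in the family. Within 10 kb of any TSS, 31 ribosomal protein genes (43.1%) had a site, against 46.3% of all genes and 48.5% of genes with a CGI. With 1 TSS a gene this was 30 genes (41.7%) against 43.3% and 45.0%. Within 50 kb the share was 84.7% against 72.7% and 79.1%, and within 100 kb it was 90.3% against 83.2% and 90.1%. Covered bases differed in the same way near the TSS. Within 1 kb of the TSSs, a mean of 1.76% of bases was covered in ribosomal protein genes, 15.5% in all genes and 15.1% in genes with a CGI. Within 10 kb the means were 5.49%, 12.4% and 12.1%. Within 50 kb the means were 9.69%, 11.9% and 12.3%, and within 100 kb 11.3%, 12% and 12.9%, so that the mean of the family stayed the lowest. The medians had another order, with 6.26%, 3.90% and 5.11% within 50 kb and 7.49%, 5.51% and 7.25% within 100 kb. Ribosomal protein genes had a median of 5 other protein-coding genes within 100 kb, against 3, and were short, with a median length of 3328.5 bp against 17629 bp. The part of gene density and gene length in these shares was not tested. A site lay inside the gene at 3 of 72 members (4.17%), against 30.4% of all genes.

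Sites near ribosomal protein genes were mostly upstream of them. With 1 TSS a gene, 28 genes had their nearest site outside the TSS but within 10 kb, and for 24 of them (85.7%) it was upstream and for 4 downstream. Over all genes in the same situation 68.0% were upstream, and over genes with a CGI 78.3%. From 1 to 10 kb upstream a mean of 11.6% of bases was covered, against 14.3% for all genes and 15.9% for genes with a CGI. From 1 to 10 kb downstream it was 1.62% against 11.8% and 10.7%. A site was present in the upstream stretch of 26 genes (36.1%) and in the downstream stretch of 5 (6.94%). For all genes these shares were 35.7% and 26.5%, and for genes with a CGI 38.8% and 23.3%. The family thus had a lower share than other genes on the side of the gene body, while its upstream share was near the background.

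Downstream coverage was low in both subunits, with 0.943% in the large and 2.62% in the small subunit. Upstream, mean coverage was 12.8% in the large and 9.78% in the small subunit, both below the 14.3% of all genes. A site was present upstream in 44.2% and 24.1% of the genes, above and below the 35.7% of all genes. Of the genes whose nearest site lay within 10 kb, 17 of 18 (94.4%) in the large and 7 of 10 (70%) in the small subunit had it upstream. The difference between the subunits was not tested. Since the median gene ends within the downstream stretch, the 10 kb past the gene end were also measured. They were covered to 2.26% in ribosomal protein genes, 10.2% in all genes and 9.55% in genes with a CGI. Rpl3l was an exception, with 4.74% of bases covered upstream and 37.4% downstream. Its neighbour Rps2 had none upstream and 38.1% downstream, and both genes have the same nearest site. Rps19 had the reverse, with 89.9% covered upstream and none downstream, as had Rps3 with 66.4%, Rpl17 with 65.4% and Rpl26 with 50.3%.

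The profile around the TSS shows the shape of this difference. Coverage in bins of 1 kb was 14.7% from 6 to 5 kb upstream, 10.0% from 3 to 2 kb, 4.93% from 2 to 1 kb and 2.23% in the last kb before the TSS. It was 1.5% in the first kb of the gene and 0.411% from 5 to 6 kb. In genes with a CGI the bin before the TSS had 17.6% and the first kb 19.2%, so that the TSS was the highest point of their profile. In ribosomal protein genes coverage rose again beyond 12 kb downstream and reached 18.9% from 27 to 28 kb. In a window set around this peak after it was seen, from 20 to 35 kb downstream, 31 of the 72 genes (43.1%) had a site, against 28.8% of all genes and 27% of genes with a CGI. Mean coverage there was 13.8% against 10.5% and 10.1%, with Rps21, Rpl3l and Rps7 covered most. In the same window upstream, 40.3% of the family had a site against 35.4% and 38.4%, and mean coverage was 8.88% against 12.4% and 13.7%. With 1 TSS a gene, 42 ribosomal protein genes had no site within 10 kb, and of these 29 had their nearest site downstream and 13 (31%) upstream, against 54.8% upstream over all such genes and 57.4% over those with a CGI. Single bins of 72 genes rest on few sites, and no test was made between genes, which are not replicates.

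**Figure D3:**
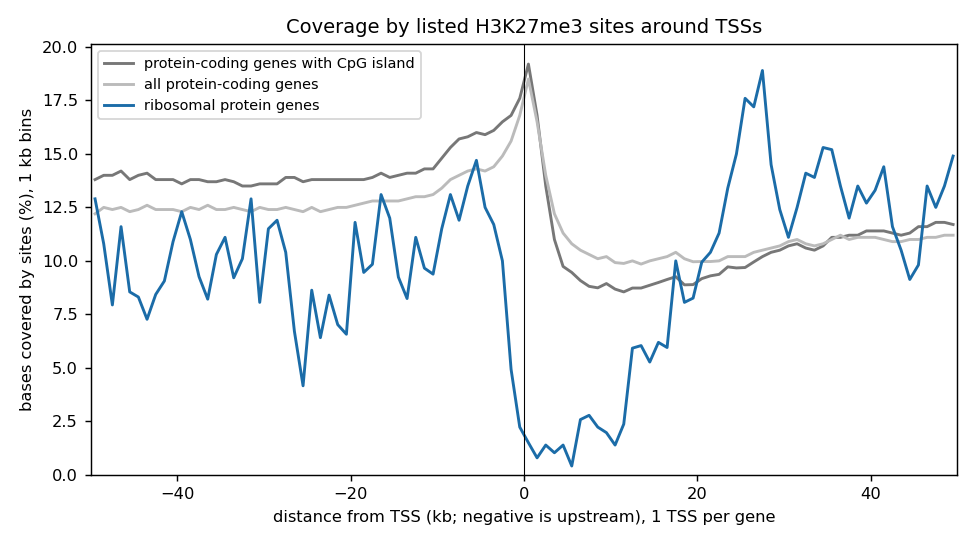
Percent of bases covered by listed H3K27me3 sites in 1 kb bins from 50 kb upstream to 50 kb downstream of 1 TSS a gene, for 72 ribosomal protein genes (blue), all 20807 autosomal protein-coding genes (light grey) and the 12583 of them with a CGI (dark grey). Lines are means over genes. The blue line falls to 0.411% downstream of the TSS, where the grey lines have passed their highest point.

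The nearest sites of the 72 genes were 70 different sites with a median width of 872.5 bp, and autosomal sites had a median of 687 bp. Rpl3l and Rps2 on chromosome 17 shared their nearest site, so genes of such a pair are not independent observations.

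Paralogs and disease genes were looked at as lists. Among 4 paralogs within the rule, Rpl3l had a TSS inside a site, while Rpl39l was 22896 bp, Rpl10l 93175 bp and Rps27l 230265 bp away. Rpl10l and Rpl39l are autosomal copies of X-linked genes with a known role in the testis, and Rps27l responds to p53. Thus a tissue-restricted paralog was found with a site (Rpl3l) and others without one nearby. Of 8 genes mutated in Diamond-Blackfan anemia, a failure of red cell production, 0 had a site within 1 kb and 6 within 10 kb, where the shares over all genes were 26.9% and 46.3% and those of the family 6.94% and 43.1%. The distances were 1507 bp for Rpl5, 1643 bp for Rps19, 2086 bp for Rps26, 2518 bp for Rpl11, 4596 bp for Rps7, and 7585 bp for Rps10. Rps24 was 16675 bp and Rpl35a 82828 bp from the nearest site, so that genes of this list lay on both sides of the family's median of 16618.5 bp.

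Polycomb target families were the contrast to which the ribosomal protein genes were set. Of 85 genes of the Hox, Pax, Lim homeobox, Nkx, Gata and Tbx families, 72 had a CGI, and 60 (70.6%) had a site within 1 kb, against 6.94% of ribosomal protein genes. The median distance was 0 bp, and the median covered share within 10 kb was 74.4%, against 0% for ribosomal protein genes. No base within 10 kb was covered in 41 ribosomal protein genes (56.9%), against 53.7% of all genes. Upstream and downstream coverage from 1 to 10 kb was even in the Polycomb target families, 58.1% and 58.6%.

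Other genes of the translation machinery had low shares too. Of 78 genes for mitochondrial ribosomal proteins, 3 (3.85%) had a site within 1 kb, namely Mrpl35, Mrpl23 and Mrps18a. Of 65 genes for translation factors, 5 (7.69%) had one, which were Eef1a2, Eif4e1b, Eif4e3, Eif4g3 and Eef1a1. EEF1A2 is the elongation factor of muscle and neurons, and EEF1A1 its ubiquitous counterpart. Sites from 1 to 10 kb were uneven in both lists as well. Mean coverage upstream was 12.6% and downstream 1.54% for mitochondrial ribosomal protein genes, and 14.5% and 3.93% for translation factors.

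**Figure D4:**
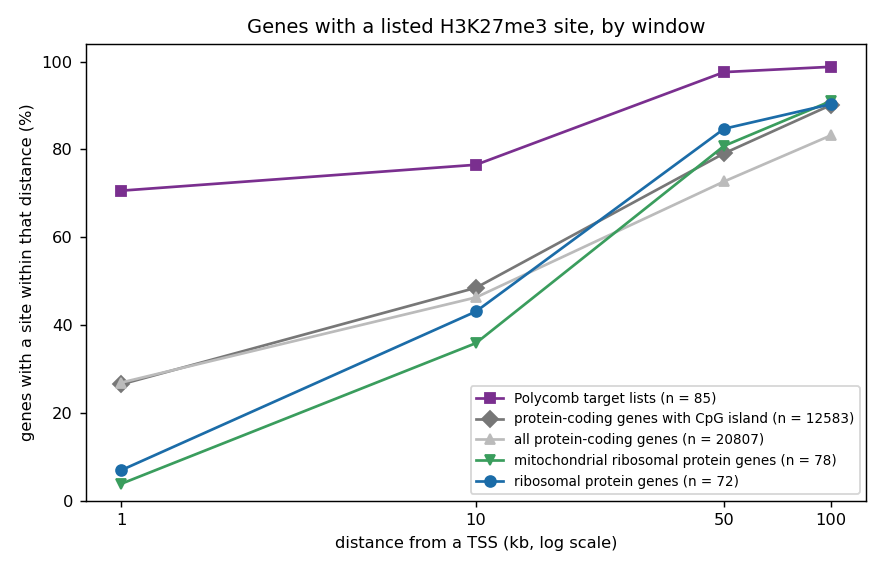
Percent of genes with a listed H3K27me3 site within 1, 10, 50 and 100 kb (log scale) of any TSS, for ribosomal protein genes, mitochondrial ribosomal protein genes, Polycomb target families, all autosomal protein-coding genes and those with a CGI. At 1 kb both ribosomal lists lie below 10% and the Polycomb target families at 70.6%, and at 100 kb all 5 lines lie above 80%.

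A site can be missing where reads cannot be placed. Within 1 kb of the TSSs, a median of 98.1% of the 75-base stretches of ribosomal protein genes occurred once in the genome, from 79.4% at Rps2 to 100%, and 5 genes were under 90%. In the Polycomb target families the range was 97.8% to 100%. Repeats made up a median of 15.6% of the bases near ribosomal protein TSSs and 13.4% near those of all genes. The part of these differences in the count of sites was not tested. None of the 72 genes lay in a region repeated by a genome patch. As a check of the cells, a site lay within 1 kb of 1 of 12 fibroblast markers (Pdgfra) and of 7 of 12 markers of other cells, which describes the mark and not expression. In a population of cells a site does not tell in how many cells the mark was present.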

How the data were processed

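Per the labels, H3K27me3 ChIP and input libraries were sequenced from iMEF cells. According to the study's methods, Trim Galore was used by the authors for trimming, BWA for alignment to mm10 (GRCm38.p6), samtools for filtering, Picard for merging of replicates and MACS for calling broad peaks. Versions, cutoffs and the rule joining peaks of different samples are not given in the sources used here. The deposited list gives the chromosome, start and end of each site, as genome positions and no other value. There were 0 unused columns of per-sample values. Planned tests between times needed counts per library and were not run, a departure from the design. The authors planned a minimum number of reads per sample and brought libraries to the lowest coverage of an experiment. Whether this preceded peak calling is not given in the sources used here, and the depth obtained is unknown.

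Sites were used without a filter. Starts were taken as counted from 0, since the smallest width is then 200 bp, and are printed counted from 1. TSSs came from GENCODE M21 on GRCm38. CGIs were maximal-scoring segments of the repeat-masked sequence (17 for a CpG, -1 for another base), at least 200 bp long with 50% GC and an observed to expected CpG ratio of 0.6. This gave 17060 islands. Genome patches were aligned with minimap2 2.31-r1302 (at least 5 kb, 99% identity). Scripts used Python 3.11.15 and numpy 2.4.6 and were tested on simulated data. Intervals are 95% Wilson intervals for shares, and order statistics for medians. Every member with a site within 1 kb was named, with those nearest to that limit, the 5 nearest and 5 farthest outside it, the 3 most covered, and listed paralogs and disease genes. Rps2, Rps21 and genes at flanking sites were named after their values were seen. Some items that these rules name are not reported here. The members and lists were chosen with earlier results of these data known. Alternatives changed the width of sites, merging, TSSs, members and windows.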

Additional observations from a re-analysis of the deposited data

How the results depend on the processing

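The count of 5 ribosomal protein genes with a site within 1 kb stayed within 1.5 times (4 to 6) under 10 of 17 alternatives, among them sites of at least 500 bp or 1000 bp, merged sites, the basic set of TSSs, members without the paralogs and members with the X-linked and P-stalk genes and Rpsa. It was 2 when the centre of the site had to lie within 1 kb, and 3, 8, 12 and 31 with windows of 500, 2000, 3000 and 10000 bp. With 2 alternatives chosen after seeing the data it was 3 with 1 TSS a gene, and 2 of 53 genes with the TSSs of the RefSeq promoter table, which lacks entries for 19 members. The median distance stayed inside its interval under 10 of 11 alternatives and was 22207.5 bp with sites of at least 1000 bp. The median covered share within 10 kb was 0% under 12 of 14 alternatives, and 6.26% and 7.49% with windows of 50 and 100 kb. The count of 5 rests on small numbers: Rpl3 and Rpl17 each depend on 1 annotated transcript and Rpl38 on 10 bp, and the depth obtained, which limits which sites were found, is unknown beyond a planned minimum. No paired analysis was possible because the list holds no value of a single library. For the same reason leaving out replicates and the count tests between times were not run.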

Other observations

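Of 8 ribosomal protein genes that the symbol or autosome rule left out (the X-linked genes, the P-stalk genes and Rpsa), only Rps4x had a TSS with a site within 1 kb. The site, of 397 bp at chrX:102188524-102188920, lay in an intron of the gene and 416 bp from the nearest TSS. Rps4x is the X-linked gene of a small subunit protein. Rpl36a was 2094 bp from its nearest site, the P-stalk genes Rplp2, Rplp1 and Rplp0 were 10356, 11189 and 91060 bp away, Rpsa was 10889 bp away, and the X-linked Rpl39 and Rpl10 were 26938 and 27223 bp away. The paralog Rpl36al, whose symbol ends in 2 letters and is also outside the rule, was 33698 bp from its nearest site.

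Pseudogenes named after ribosomal protein genes had a site within 1 kb about as often as other processed pseudogenes. The count was 39 of 249 (15.7%), close to the 15.0% of all 9193 processed pseudogenes. The share of the 72 ribosomal protein genes was lower, 6.94%, though counted over a median of 6 TSSs a gene. No test was made of this difference. Inside 25 of the 72 ribosomal protein genes lie 50 annotated snoRNA genes.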
